A study of Mus musculus with 2 samples.

Results

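The nuclear-encoded subunits of the mitochondrial respiratory chain and of ATP synthase were examined in the RNA of mouse cavernous endothelial cells (MCECs) grown in culture. Members were taken by gene symbol, as every symbol starting with Ndufa, Ndufb, Ndufc, Ndufs or Ndufv (complex I), Sdh (complex II), Uqcr (complex III), Cox4 to Cox8 (complex IV) or Atp5 (complex V), with the assembly factors Ndufaf and Sdhaf and the symbol Ndufa4l2 left out. This gave 84 of 23183 symbols, namely 37 of complex I, 4 of complex II, 8 of complex III, 18 of complex IV and 17 of complex V. The prefixes also take a few symbols that are not subunits of the enzymes proper, such as Atp5s, Atp5sl and Cox7a2l, and they miss cytochrome c1 (Cyc1) and cytochrome c (Cycs), which are described with the electron carriers.

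RNA sequencing covered MCECs under high glucose, with a single library for HG+HBS and another for HG+PC-NVs. HG was medium with 30 mM glucose in both conditions, HBS was the vehicle, and PC-NVs were nanovesicles obtained by extruding cultured mouse cavernous pericytes, given at 1 µg/mL. By the study's methods the primary cells came from male C57BL/6J mice 8 weeks old and were used at passages 2 to 4. The methods place lysis 72 hours after the glucose exposure began and 24 hours after PC-NVs were added, whereas the sample labels state 5 days of glucose. A figure legend of the study can be read as treatment with PC-NVs or HBS for all 72 hours. The time with vesicles is therefore uncertain. MCECs were grown in M199 medium with serum and heparin, the methods place a period without serum before the glucose exposure, and no genetic change was stated for either culture, so the vesicles were the difference between the libraries that the labels name, and the comparison asks how the RNA of MCECs in high glucose differs once PC-NVs are added.

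The deposited values are log2(normalized FPKM + 1), where FPKM is fragments per kilobase of transcript scaled to the size of the library, a per-length level that may be compared between genes. The rows of a symbol were converted to FPKM and summed, and each log2 ratio below is HG+PC-NVs over HG+HBS on the log2(FPKM + 1) scale, which understates the change of low genes. From the spacing of low values the libraries held about 13500000 fragments (HG+HBS) and 11700000 (HG+PC-NVs). With 1 library per condition there is no replicate check, so how much separate cultures would vary is unknown and no test was possible, and the range after a ratio is its 95% interval for counting error only. A symbol was tested where its mean level was at least 1 FPKM (11828 symbols, 80 of them members), and was called higher or lower where its level in the higher library exceeded that in the lower by more than 25%, which is 0.32 on the log2 scale. The methods name quantile normalization, yet the sorted values of the libraries lay more than 0.05 apart in 2318 of 33299 rows. The values were therefore used as deposited, and a further quantile normalization between the libraries was the main alternative. It turned 30 of the 45 members with a ratio above 0 to below 0 and 0 of the 35 below 0 to above, so any positive ratio of a member below holds as deposited and may turn with the scaling.

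Of 14 endothelial markers, 4 (HG+HBS) and 3 (HG+PC-NVs) reached 1 FPKM, with summed levels of 35.8 and 29.1 FPKM, and Pecam1 stood at 1.05 and 0.938 FPKM and Vwf at 0.158 and 0.128 FPKM. All 8 fibroblast markers passed 1 FPKM in both libraries, with sums of 2143 and 2453 FPKM but medians of 162 and 134 FPKM, since Dcn rose from 623 to 1283 FPKM while the other markers were lower with PC-NVs. All 9 macrophage markers passed 1 FPKM as well, with sums of 308 and 526 FPKM but a median that was lower with PC-NVs, since Cd14 rose from 36.6 to 252 FPKM and Adgre1 from 7.44 to 42.5 FPKM while Lyz2 was at 212 and 193 FPKM and Mrc1 fell from 3.76 to 1.27 FPKM. For 9 pericyte markers the sums were 102 and 94.0 FPKM but the medians 3.59 and 7.23 FPKM. Rgs5 rose from 1.69 to 7.23 FPKM, Kcnj8 from 7.98 to 20.4 FPKM and Abcc9 from 1.77 to 2.99 FPKM. Cspg4, Pdgfrb, Notch3, Anpep and Mcam fell, and Higd1b was at 0. Sums were 72.1 and 37.0 FPKM for 7 smooth muscle markers, and 5.04 and 3.05 FPKM for 6 skeletal muscle markers, where Myod1, Myog and Ckm were at or near 0. Of the endothelial markers, Esam was at 17.4 and 11.7 FPKM, Egfl7 at 9.48 and 8.57 FPKM and Cdh5 at 5.05 and 5.73 FPKM, and most others were below 1 FPKM. The endothelial label is thus borne out by few of its markers, and the cells are called MCECs here after their label. In such bulk RNA fewer cells of a type and less RNA per cell cannot be told apart, and the part of these cell type genes in the results below was not tested.

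As background, complexes I and II pass electrons from NADH and succinate to coenzyme Q, complex III passes them on to cytochrome c, and complex IV hands them to oxygen. The protons that complexes I, III and IV pump across the inner membrane drive complex V, ATP synthase. Endothelial cells are known to make much of their ATP by glycolysis, and their mitochondria are also studied as a source of reactive oxygen species in high glucose.

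Respiratory chain transcripts were abundant and their levels lay close together in the 2 libraries. Of the 84 members, 60 were among the 1000 highest symbols of HG+HBS, and 72 had at least 32 FPKM in both libraries. Summed over members, the level was 14033 FPKM with HBS and 14375 FPKM with PC-NVs, a ratio of 1.02 (1.02 to 1.03). Their share of all FPKM went from 2.69% to 2.48%, while the summed level of all tested symbols was 1.11 times higher in HG+PC-NVs. The median log2 ratio of the 80 tested members was 0.01, beside -0.01 for all tested symbols, with 45 members above 0 and 35 below. After quantile normalization the median of the members turned to -0.13 and that of all tested symbols was -0.04, so the direction of the members as a group depends on the scaling.

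Only 3 of 80 members (3.75%) were called higher in HG+PC-NVs, Ndufs5, Cox4i2 and Uqcr11, beside 12.6% of all tested symbols, and 0 were called lower, beside 12.1%. After quantile normalization 2 were called higher, Ndufs5 and Cox4i2, beside 11.5% of all tested symbols, and 1 was called lower, Sdhc at -0.40, beside 13.4%. Above 1.5-fold and above 2-fold, Ndufs5 alone was called higher, 1 of 80, beside 5.47% and 2.47% of all tested symbols, and 0 members were called lower, beside 3.64% and 0.829%. Past 1.1-fold in either direction were 24 members (30% of 80), beside 57.3% of all tested symbols.

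The narrow spread held among abundant genes. Of the 72 members of at least 32 FPKM in both libraries, 1 was called higher (1.39%) and 0 lower, beside 12.3% and 6.16% of the 2372 symbols at that level, and 19 (26.4%) passed 1.1-fold in either direction, beside 49.5%. The SD of the log2 ratio was 0.192 over the 80 members, 0.141 without Ndufs5, and 0.463 over all tested symbols, and the interquartile ranges were 0.187 for the members and 0.332 for all. Across genes, the log2 levels of the libraries had a Pearson correlation of 0.993 over the 80 members and 0.968 over the 11828 symbols, a description only, since the genes of a library share its depth and are not independent replicates. The counting interval of the ratio lay above 1 for 20 members, below 1 for 13 and included 1 for 47, at medians of 1571 and 1403 estimated fragments per member. The same count is not given here for all tested symbols, so it does not set the members apart.

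**Figure D1:**
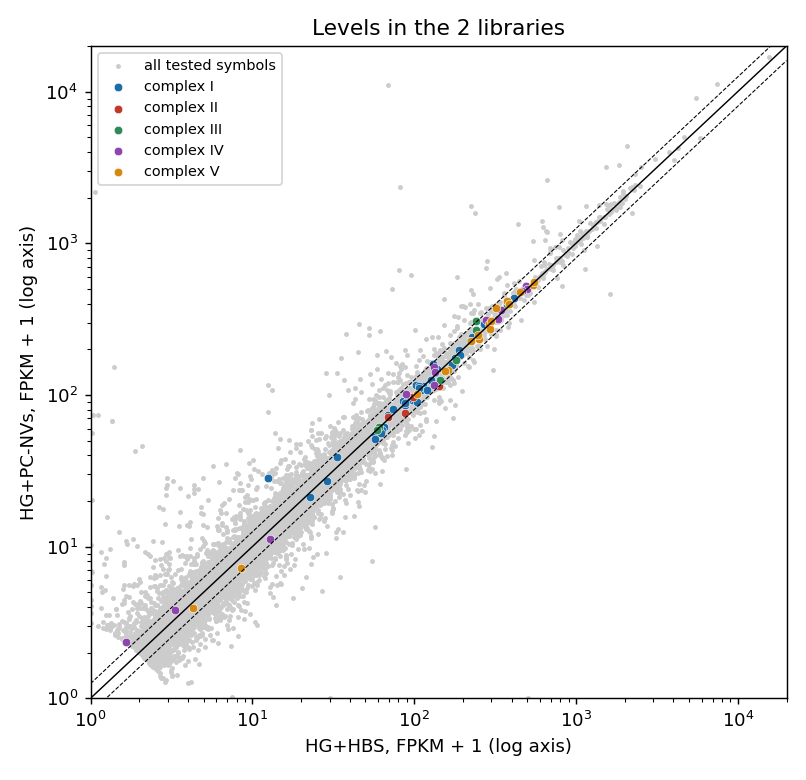
Level of each symbol in HG+HBS (x axis) and HG+PC-NVs (y axis) as FPKM + 1 on log axes, with all tested symbols in grey, the subunits coloured by complex, the solid line at equal levels and the dashed lines at the 25% threshold. The subunits follow the line of equal levels more tightly than the grey points, with Ndufs5 (11.5 and 27.4 FPKM) the subunit farthest above it.

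The complexes differed little from each other. Summed over its subunits, complex I was at 4204 FPKM with HBS and 4281 FPKM with PC-NVs (ratio 1.02, 1.00 to 1.03). Complex II was the lowest in sum and the only complex with a ratio below 1, at 393 and 356 FPKM (ratio 0.905, 0.878 to 0.933). Complex III was at 1514 and 1604 FPKM (ratio 1.06, 1.03 to 1.09). As deposited, complexes II and III were the pair farthest apart, and their counting intervals do not overlap. Complex IV was at 3274 and 3420 FPKM (ratio 1.04, 1.03 to 1.06), and complex V was the highest in sum, at 4649 and 4714 FPKM (ratio 1.01, 1.00 to 1.03). After quantile normalization all 5 ratios were below 1, with 0.945 for complex I, 0.855 for complex II, 0.940 for complex III, 0.897 for complex IV and 0.882 for complex V. The place of complex II as the lowest was thus shared by both scalings, whereas the order of the others was not. Since complex II has only 4 subunits, its ratio rests on few genes.

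**Figure D2:**
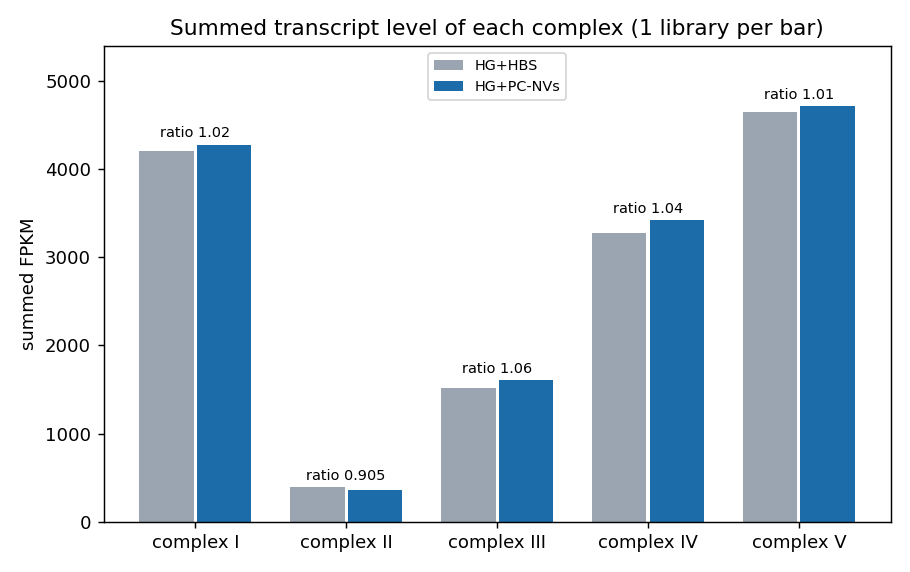
Summed FPKM of the subunits of each complex in HG+HBS (grey) and HG+PC-NVs (blue), 1 library per bar and therefore no error bars, with the ratio of the sums above each pair. Complex II had the lowest sums (393 and 356 FPKM) and the lowest ratio (0.905), and the other ratios ran from 1.01 to 1.06.

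Complex I, NADH dehydrogenase, was the complex with the most members. Its 7 catalytic core subunits, which carry the flavin, the iron-sulfur clusters and the quinone site, had a median log2 ratio of -0.09, and none was called. Ndufv1, which binds NADH and the flavin, was at 56.4 and 50.6 FPKM (-0.15), and its partner Ndufv2 at 61.6 and 55.4 FPKM (-0.15). Ndufs8, an iron-sulfur protein of the arm that leads to quinone, was at 103 and 89.2 FPKM (-0.20), the lowest ratio of complex I. These 3 stood lower in HG+PC-NVs, and the counting interval of each lay below 1. Ndufs3, a core subunit of the same arm, was instead at 72.5 and 79.5 FPKM (0.13). Ndufs7, the iron-sulfur protein next to the quinone site, was level at 87.3 and 87.4 FPKM. The core therefore split, with members on both sides of 0.

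Ndufs1, the largest core subunit and the holder of several iron-sulfur clusters, was at 27.7 and 25.9 FPKM over its 4 rows (-0.09). Its rows moved apart. The highest row was at 15.8 and 11.5 FPKM (-0.43) and another at 2.58 and 5.82 FPKM (0.93). With the highest row alone Ndufs1 would be called lower, so its call depends on the rows being summed.

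The 30 other subunits of complex I, called accessory because they hold no redox center, had a median of 0.03. By family, now with the core subunits counted, 10 of 14 Ndufa symbols were above 0 (median 0.05, ratio of sums 1.05). Of the Ndufb symbols 9 of 10 were below 0 (median -0.08, ratio of sums 0.954, 0.930 to 0.979). Above 0 were 0 of 3 Ndufv symbols, 6 of 8 Ndufs symbols (median 0.08) and 2 of 2 Ndufc symbols (median 0.08). The Ndufb proteins are membrane arm subunits, and Ndufb2 was the exception among them, at 84.6 and 90.7 FPKM (0.10). None of the Ndufa or Ndufb symbols was called. Ndufa1, a small membrane subunit needed for assembly of the complex, was at 129 and 159 FPKM (0.30) and just missed the 25% threshold. Ndufs4, an accessory subunit attached late in assembly, was at 32.3 and 38.0 FPKM (0.23). Ndufa4, counted here by its name although it is now regarded as a subunit of complex IV, was at 268 and 291 FPKM (0.12, and -0.08 after quantile normalization). After quantile normalization the medians were -0.06 for the Ndufa symbols and -0.15 for the Ndufb symbols, so the side of 0 on which the Ndufa symbols lie depends on the scaling.

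Ndufs5, an accessory subunit of complex I on the intermembrane side, had the largest ratio of all members, at 11.5 FPKM with HBS and 27.4 FPKM with PC-NVs (1.18, ratio without pseudocount 2.38, 1.85 to 3.09), and it was also the lowest complex I subunit in HG+HBS. Its gene lies at chr4:123712710-123718202 on the minus strand (mm10). The files also list BC002163, a processed pseudogene of Ndufs5 at chr16:42955631-42955949 on the plus strand. Of the 318 coding bases of the Ndufs5 transcript, 316 are the same in BC002163 (99.4%), and the last 213 coding bases are the same without a break. The first 150 coding bases from the reference transcript are shown because they hold both differing bases, in capitals, at positions 81 and 105 counted from the A of the start codon.

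Ndufs5 coding bases 1 to 150: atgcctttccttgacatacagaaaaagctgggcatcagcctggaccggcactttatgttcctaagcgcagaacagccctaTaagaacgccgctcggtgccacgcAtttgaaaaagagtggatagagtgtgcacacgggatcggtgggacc

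A fragment that covers neither capital letter and stays within the coding bases reads the same from the gene and from the copy. The deposited level of BC002163 was above that of Ndufs5 and moved the other way, from 86.7 to 66.5 FPKM (-0.38). Summed, Ndufs5 and BC002163 were at 98.2 FPKM with HBS and 93.8 FPKM with PC-NVs (-0.065). On this sum of per-length levels the rise of Ndufs5 was lost and its direction turned. Such a sum gives a fragment of the shorter BC002163 (319 nt) more weight than one of Ndufs5 (599 nt). By estimated fragments Ndufs5 was at 92.9 and 192.6 and BC002163 at 373 and 249, in libraries of unlike depth. The turned direction thus belongs to the FPKM sum, and pooled fragments of Ndufs5 and BC002163 were not compared. How the authors' counting divided fragments between them is not given in the sources used here, so the call on Ndufs5 is uncertain. Without Ndufs5 the ratio of sums of complex I was 1.01 and its median -0.01.

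**Figure D3:**
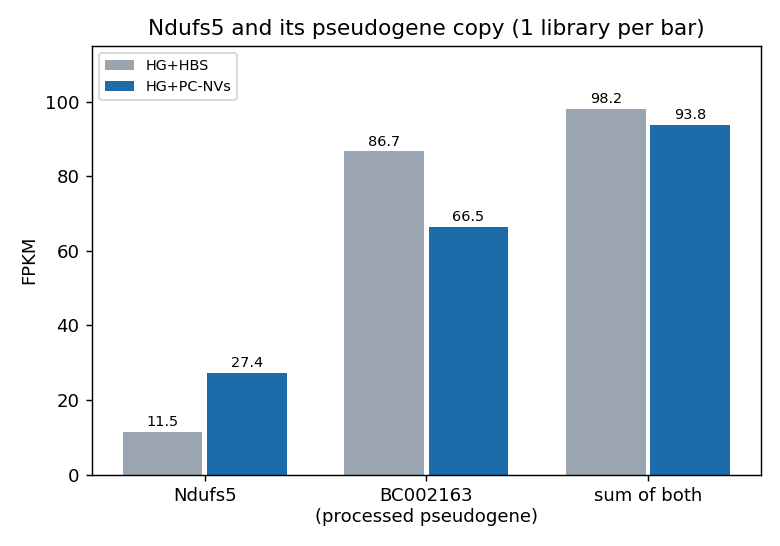
FPKM of Ndufs5, of its processed pseudogene BC002163 and of their sum in HG+HBS (grey) and HG+PC-NVs (blue), 1 library per bar and therefore no error bars. Ndufs5 went from 11.5 to 27.4 FPKM and BC002163 from 86.7 to 66.5 FPKM, while the sum was 98.2 and 93.8 FPKM.

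Sequence shared with another gene was not limited to Ndufs5. Of the 84 members, 24 shared at least 10% of their 50-base stretches with a transcript of another gene, which can be a copy elsewhere or a gene that overlaps at the same locus, and 37 shared 0. A copy away from the locus that held at least 10% of these stretches and was listed as a symbol of its own was found for 2 members, Ndufs5 and Cox7c. Only the copy of Ndufs5 was aligned. Cox7c, a small subunit of complex IV, was at 275 and 313 FPKM (0.18), and its listed copies Gm10012 and Gm12338 together at 13.8 and 10.4 FPKM. Added to them, Cox7c had a log2 ratio of 0.16, so here the copies changed little, although Cox7c itself was at -0.04 after quantile normalization. Atp5l, the g subunit of ATP synthase, shared the most, 84.8%, and was at 386 and 396 FPKM (0.04, and -0.23 after quantile normalization).

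Complex II, succinate dehydrogenase, is also an enzyme of the tricarboxylic acid cycle and has no subunit encoded in mitochondrial DNA. Sdhc, a heme-binding membrane anchor, was at 141 and 113 FPKM (-0.31, ratio 0.803, 0.771 to 0.835), the lowest log2 ratio of all tested members. It just missed the 25% threshold as deposited and passed it after quantile normalization (-0.40). Sdha, the flavoprotein that oxidizes succinate, was at 86.3 and 75.0 FPKM (-0.20). Sdhb, the iron-sulfur subunit, was level at 97.7 and 96.5 FPKM (-0.02), and the other anchor, Sdhd, at 67.9 and 70.9 FPKM (0.06). The low sum of complex II in HG+PC-NVs thus came from Sdhc and Sdha, and its subunits did not move together.

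Complex III, the cytochrome bc1 complex, held the only abundant member that was called. Uqcr11, its smallest subunit, was at 239 and 306 FPKM (0.36, ratio 1.28, 1.19 to 1.38), and its log2 ratio after quantile normalization was 0.17, inside the threshold. Its gene lies at chr10:80402997-80406830 on the minus strand, and 10.9% of its 50-base stretches occur in another gene. Uqcrq, another small subunit, was at 239 and 268 FPKM (0.16), close to Uqcr11 in HG+HBS. Uqcrc1, a core protein related to the mitochondrial processing peptidase, was at 144 and 125 FPKM (-0.21), and its partner Uqcrc2 at 59.7 and 60.6 FPKM (0.02). The Rieske iron-sulfur protein Uqcrfs1, which carries electrons within the complex, was level at 57.6 and 58.0 FPKM (0.01). The ends of the range of complex III were thus a small subunit and a core protein, with the electron-carrying protein in between.

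Complex IV, cytochrome c oxidase, had the highest median, 0.09, with 11 of its 14 tested symbols above 0, but the median turned to -0.14 after quantile normalization. Of its subunits that come as isoforms, the widely expressed form made up nearly all transcripts. Cox4i1, the regulatory subunit in most tissues, was at 489 and 524 FPKM (0.10), Cox6a1 at 377 and 407 FPKM (0.11), and Cox6b1, which faces cytochrome c, at 498 FPKM in both. Cox8a was at 464 and 481 FPKM (0.05), Cox7b at 88.5 and 100.1 FPKM (0.18), and Cox7a2 at 132 and 116 FPKM (-0.19). Cox7a2 was thus the exception in direction, and Cox6b1 was level. After quantile normalization Cox4i1 (-0.14), Cox6a1 (-0.16), Cox6b1 (-0.24) and Cox8a (-0.23) all stood lower in HG+PC-NVs, so their direction depends on the scaling. Under upper-quartile scaling Cox4i1 (0.06), Cox6a1 (0.08) and Cox8a (0.02) stayed above 0 and Cox6b1 was at -0.03. Cox5a, which has no such partner, was at 132 and 153 FPKM (0.21).

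The tissue isoforms were low or listed near 0. Cox4i2, the isoform known from lung and from low oxygen, was at 0.645 FPKM with HBS and 1.37 FPKM with PC-NVs (0.52), which passed the threshold, but it rested on about 6.35 and 11.7 fragments, and the interval of its ratio ran from 0.798 to 7.46. Its share of all Cox4 transcripts went from 0.132% to 0.260%. A difference in Cox4i2 was thus not detectable at this depth. Cox7a1, a heart and muscle isoform, was at 2.34 and 2.82 FPKM (0.19), or 1.74% and 2.38% of Cox7a. Cox6b2, an isoform known from testis, was at 11.9 and 10.3 FPKM (-0.20), or 2.34% and 2.02% of Cox6b, and was the highest of the tissue isoforms. Its rows moved in opposite directions, with the highest at 5.27 and 7.90 FPKM (0.50). Cox6a2, Cox7b2, Cox8b and Cox8c were too low to be tested, and of the muscle forms among them Cox8b was at 0.794 and 0.476 FPKM and Cox6a2 was near 0 in both.

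Complex V, ATP synthase, was the complex with the highest summed level, and none of its 17 symbols was called. The SD of its log2 ratios was 0.115, beside 0.224 for complex I, which was 0.114 without Ndufs5. Atp5b, the catalytic β subunit, was at 540 and 532 FPKM (-0.02), and Atp5a1, the α subunit beside it, at 251 and 232 FPKM (-0.11). Of the central stalk, Atp5c1 (γ) was at 160 and 144 FPKM (-0.15), Atp5d (δ) was level at 248 FPKM in both, and Atp5e (ε) was at 320 and 375 FPKM (0.23). The transcripts of this head and central stalk thus ran from the lowest to the highest ratio of the enzyme's own subunits. Atp5sl, named for its likeness to an ATP synthase factor, lay lower still, at 7.55 and 6.24 FPKM (-0.24), with a counting interval that included 1. After quantile normalization Atp5e was at -0.01, and under upper-quartile scaling at 0.19, so its direction depends on the scaling.

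The c subunit, which forms the rotating ring in the membrane, is encoded by 3 genes whose mature protein is the same. Atp5g1, Atp5g2 and Atp5g3 made up 20.8%, 39.1% and 40.1% of c subunit transcripts with HBS and 19.3%, 39.3% and 41.4% with PC-NVs, and their sum was 740 FPKM in both. The mix of the c subunit genes was thus near equal in the 2 libraries. The peripheral stalk (Atp5f1, Atp5h, Atp5j and Atp5o), which holds the head still, had a median of -0.01, with Atp5h at 449 and 474 FPKM (0.08, and -0.21 after quantile normalization) and Atp5o at 293 and 272 FPKM (-0.11). Atp5k, the e subunit of the membrane part, was the highest of all members in HG+HBS, at 553 and 551 FPKM.

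**Figure D4:**
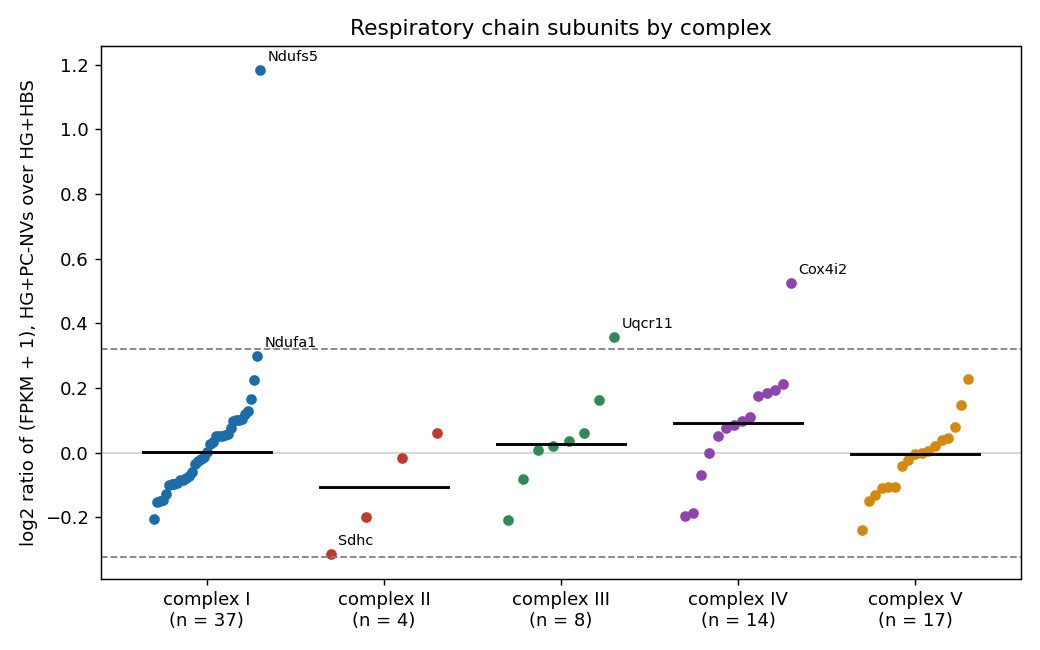
Log2 ratio of (FPKM + 1), HG+PC-NVs over HG+HBS, for each tested subunit (points, sorted within its complex), with the median of each complex as a black bar and the 25% threshold as dashed lines. Nearly all points lie between the dashed lines, Ndufs5 (1.18), Cox4i2 (0.52) and Uqcr11 (0.36) lie above, and Ndufa1 (0.30) and Sdhc (-0.31) lie just inside.

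The members share short transcripts, with a median length of 850 nt beside 2871 nt for all tested symbols, and the ratio varied with length. The 22 members under 600 nt had a median log2 ratio of 0.06, with 18 above 0, the 27 from 600 nt to under 1000 nt a median of 0.002, and the 31 of 1000 nt and over a median of -0.03, with 12 above 0. Over all tested symbols the medians of the same classes were 0.06, 0.04 and -0.01, the same order. After quantile normalization the members' medians were -0.09, -0.14 and -0.12, so the order then did not hold for the longer classes. Across the 80 members, log2 length and log2 ratio had a Pearson correlation of -0.37 and a Spearman correlation of -0.41, and across 11773 tested symbols with a length these were -0.10 and -0.06, which is a description across genes of the same libraries. The short transcripts of Uqcr11, Ndufa1 and Atp5e (419 to 445 nt) stood at the upper end, and those of Sdhc (3171 nt), Sdha (2900 nt) and Uqcrc1 (1653 nt) at the lower end. The part of transcript length in these ratios was not tested.

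Many genes of the respiratory chain are known targets of NRF1, of ETS factors such as GABP, and of YY1, so their promoters were searched for the core letters of these motifs. RefSeq promoter windows (GRCm38.p6, 250 bases before to 50 after the start) were matched for 70 members, with 76 windows. On either strand, the NRF1 core GCATGCGC was in 10 windows (13.2%), beside 2.71% of all 32851 windows, the ETS core CCGGAAG in 16 (21.1%), beside 8.86%, and the YY1 core AAGATGG in 13 (17.1%), beside 6.34%. The ETS and YY1 letters can overlap by AAG, and a window with both was counted for each. The 32851 windows were not limited to expressed genes, and no set matched in level to the members was compared. Median log2 ratios were 0.02 with and 0.01 without the NRF1 letters, 0.04 and 0.001 for ETS, and 0.04 and 0.003 for YY1. Members with and without these letters thus had medians near 0 alike.

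The 250 bases before the start are shown for Ndufs5 and Uqcr11, the called members with the most fragments, with the letters of a motif in capitals. That of Ndufs5 (chr4:123718187-123718436, minus strand) held none of the 3, and that of Uqcr11 (chr10:80406822-80407071, minus strand) held the ETS core 66 bases before the start. The NRF1 letters of Uqcr11 span its annotated start, so the printed stretch ends within them and they are left in lower case.

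Ndufs5 upstream: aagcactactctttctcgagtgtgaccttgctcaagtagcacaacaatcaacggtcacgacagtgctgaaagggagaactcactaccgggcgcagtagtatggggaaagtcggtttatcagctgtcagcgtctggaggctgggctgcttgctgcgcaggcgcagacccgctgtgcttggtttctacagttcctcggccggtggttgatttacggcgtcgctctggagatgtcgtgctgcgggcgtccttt

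Uqcr11 upstream: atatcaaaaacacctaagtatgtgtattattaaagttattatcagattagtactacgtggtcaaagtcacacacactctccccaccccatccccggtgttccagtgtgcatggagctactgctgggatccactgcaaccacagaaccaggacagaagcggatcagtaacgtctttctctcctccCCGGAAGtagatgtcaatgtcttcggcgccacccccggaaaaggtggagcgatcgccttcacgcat

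A match is a description of the letters, and no binding was measured. Of the factors themselves, Nrf1 was at 7.04 and 7.37 FPKM (0.06), Gabpa at 17.2 and 16.6 FPKM (-0.05) and Yy1 at 28.3 and 29.6 FPKM (0.06). Tfam, which takes part in the transcription and packing of mitochondrial DNA, was at 7.26 and 6.58 FPKM (-0.12). Ppargc1a, the coactivator of mitochondrial biogenesis, was at 0.272 and 0.279 FPKM, too low to be tested, and its relative Ppargc1b fell from 1.89 to 0.688 FPKM (-0.77). Among 17 tested regulators of biogenesis, 0 were called higher, beside 12.6% of all tested symbols, with a median of -0.05. Called lower were 2 (11.8%), Ppargc1b and Tefm, near the 12.1% of all tested symbols.

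Of 19 electron carriers, related genes and subunits that the prefixes miss, 3 were called higher and 3 lower (15.8% each), near the 12.6% and 12.1% of all tested symbols, with a median of -0.07. Cytochrome c1 (Cyc1), the heme subunit of complex III, was level at 105 FPKM in both libraries, and Usmg5, a small subunit of ATP synthase, was at 409 and 472 FPKM (0.21, and -0.08 after quantile normalization). Cytochrome c (Cycs), which carries electrons from complex III to complex IV, rose from 33.0 to 46.0 FPKM (0.47), with a counting interval above 1. Coq10b, a coenzyme Q binding protein, rose from 14.5 to 23.5 FPKM (0.66), and Coq7, of coenzyme Q synthesis, rose from 17.9 to 23.5 FPKM (0.38). Coq6, of the same pathway, fell from 12.1 to 8.68 FPKM (-0.43), Etfb, an electron transfer flavoprotein that feeds the chain, fell from 80.9 to 58.8 FPKM (-0.45), and the uncoupling protein Ucp2 fell from 15.8 to 11.9 FPKM (-0.38). Coenzyme Q genes thus moved both ways. The symbols searched for the 13 subunits encoded in mitochondrial DNA matched 0 of the listed symbols, so these subunits were not analysed here.

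Of 47 assembly factors, 1 was called higher (2.13%) and 4 lower (8.51%), both below the shares of all tested symbols, with a median of -0.06. Ndufaf6 (5.15 and 2.98 FPKM, -0.63) and Ndufaf7 (6.53 and 4.23 FPKM, -0.52), both for complex I, fell, as did Sdhaf3 for complex II (4.83 and 2.97 FPKM, -0.55) and Cox20 for complex IV (66.6 and 52.1 FPKM, -0.35). Pet117, for complex IV, was the one called higher, at 0.00386 and 5.92 FPKM, under a floor of 3 fragments in the HG+HBS library, and the counting interval of its ratio starts at 14.4. Its locus overlaps that of Kat14, listed as Csrp2bp at 7.22 and 7.70 FPKM, on the same strand, so fragments of the overlap cannot be told apart.

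Of 14 other tricarboxylic acid cycle genes 0 were called higher and 1 lower (7.14%), beside 12.6% and 12.1% of all tested symbols, with a median of -0.05. The gene called was Idh2 (20.5 and 15.2 FPKM, -0.41). Of 13 genes of pyruvate entry, 2 were called higher (15.4%) and 1 lower (7.69%), beside the same 12.6% and 12.1%, with a median of 0.14. Pdk1, a kinase that switches pyruvate dehydrogenase off, rose from 1.82 to 4.59 FPKM (0.99), its relative Pdk2 fell from 9.51 to 5.55 FPKM (-0.68), and Pdhx, a structural subunit of pyruvate dehydrogenase, rose from 5.33 to 8.08 FPKM (0.52). Kinases of the same enzyme therefore moved in opposite directions.

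Of 7 mitochondrial genes known to respond to oxygen, 5 were called higher and 0 lower, with a median of 0.79 (0.78 after quantile normalization), beside 12.6% of all tested symbols called higher. This list was written with a rise of hypoxia genes in these libraries already known, so it is not independent evidence of a direction. Ndufa4l2, a relative of Ndufa4 that low oxygen induces, rose from 3.83 to 17.3 FPKM (1.92), while Ndufa4 itself stayed within the threshold. Bnip3, of mitophagy, rose from 23.9 to 49.3 FPKM (1.02), and Higd1a, a small protein bound to complexes III and IV, rose from 8.50 to 15.5 FPKM (0.79). Pdk1 and Cox4i2 were the others called, of which Cox4i2 is itself a member and rests on few fragments, and Lonp1, the protease that degrades Cox4i1, was level at 28.8 and 29.1 FPKM (0.02).

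Other lists had few calls, as the subunits did. Of 77 mitochondrial ribosomal proteins 1 was called higher (Mrpl27, 0.34) and 0 lower (median -0.001), and of 14 outer membrane, carrier and import genes 0 in either direction (median 0.03). Of 8 mitophagy genes 1 was called higher, Bnip3 (12.5%, near the 12.6% of all tested symbols), and 0 lower (median 0.06). Of 82 cytosolic ribosomal proteins, of which 72 had at least the median level of the subunits in HG+HBS, 1 was called higher (Rps27, 3.19 and 6.68 FPKM) and 0 lower, with a median of 0.02 as deposited and -0.16 after quantile normalization, beside 0.01 and -0.13 for the subunits. A low share of calls was thus seen in the ribosomal lists and the outer membrane, carrier and import list as well. Of all tested symbols, 12.6% were called higher and 12.1% lower. After quantile normalization the Mrpl27 call was lost and Mrpl24, Mrps9, Slc25a4, Sqstm1, Rpl28 and Rpl8 were called lower (-0.33 to -0.37). These were 2 of 77 mitochondrial and 2 of 82 cytosolic ribosomal proteins. The others were 1 of 14 outer membrane, carrier and import genes and 1 of 8 mitophagy genes. Of all tested symbols, 13.4% were then called lower, so none of these lists had more than that share. Of 17 reference genes, 4 were called higher (23.5%, beside 12.6% of all tested symbols) and 0 lower, with a median of 0.13. After quantile normalization 3 were called higher, without Gapdh. Among those called were Pgk1, a glycolytic enzyme, at 219 and 395 FPKM, and B2m, the light chain of MHC class I, at 1847 and 3300.2 FPKM. Sdha, a member that is often used as a reference gene, was not among those called.

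**Figure D5:**
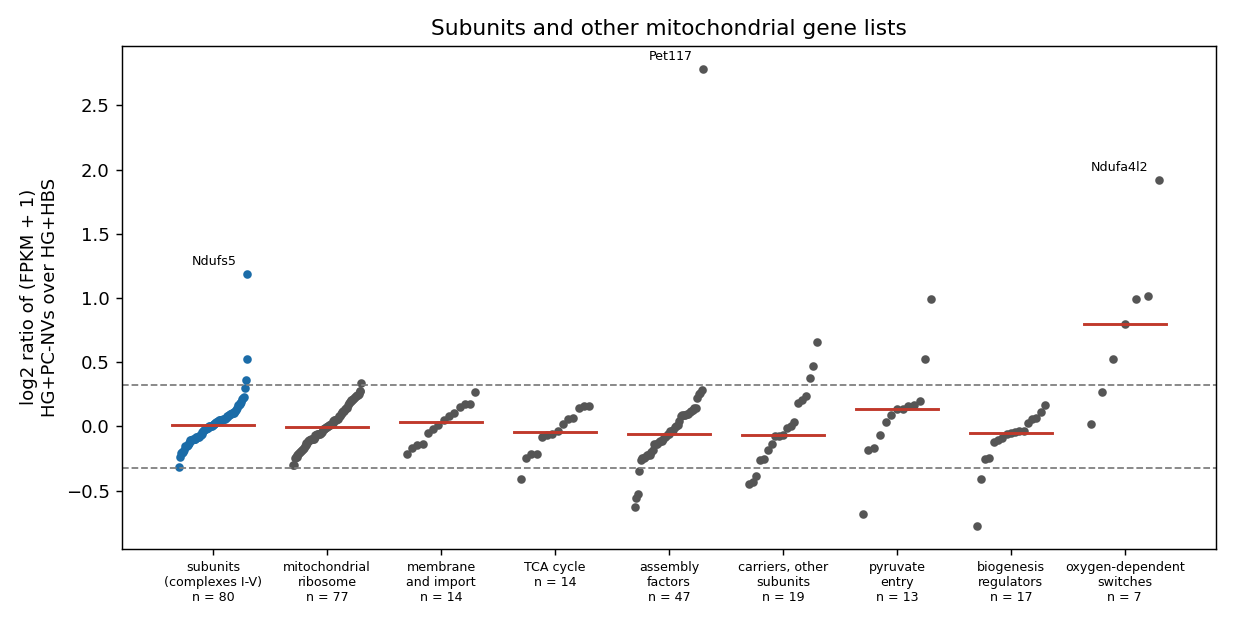
Log2 ratio of (FPKM + 1), HG+PC-NVs over HG+HBS, for each tested gene of the subunits (blue) and of 8 other mitochondrial lists (grey), with the median of each list as a red bar and the 25% threshold as dashed lines. The subunits and the mitochondrial ribosomal proteins cluster around 0 (medians 0.01 and -0.001), and the 7 oxygen-dependent switch genes lie highest (median 0.79).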

How the data were processed

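RNA of 2 MCEC cultures, HG+HBS and HG+PC-NVs, was analysed, 1 library each. Libraries were made with a stranded kit after mRNA selection. The authors trimmed adapters, mapped reads to mm10 by TopHat, determined read counts with BEDTools and FPKM with Cufflinks, normalized with edgeR, and deposited log2(normalized FPKM + 1) values for 33299 rows of 23183 symbols. Tools and build are those of the study's methods and the submitters' processing notes, and versions are not given in the sources used here. Replicates were not pooled, as there were none.

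Values were converted to FPKM and summed per symbol. Ratios used a pseudocount of 1 and symbols with a mean of at least 1 FPKM. No significance test was run. The worth of 1 fragment was read from the spacing of low values of 4679 single-transcript symbols. Fragments per symbol, and 95% intervals of the ratio (exact binomial for a symbol, from the summed counting variance for a complex), followed from this worth and cover counting error only. The spread between cultures is unknown. Length and GC content are those of the principal complete coding transcript, and these, the shared 50-base stretches and the coordinates came from the GENCODE annotation of GRCm38.p6, and promoters from RefSeq. The code that makes the calls was tested on simulated levels with known changes.

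Members and lists were chosen with earlier results of these data known. Named were the 5 highest and 5 lowest ratios, the catalytic core subunits, the isoform pairs, members next to the 25% threshold, and genes of the other lists past 1.5-fold. Further members, and list genes between the 25% threshold and 1.5-fold, were named after their values were seen. The values of 1 member under this rule are left out of the text. The alternatives were quantile, upper-quartile and median scaling, a pseudocount of 0.1, the highest row alone, other filters and folds, removal of non-subunits, and centring by length and GC content in 5 by 5 bins, with the sum of Ndufs5 and BC002163 added after the data were seen. Protein sequences and normal glucose cultures were not used here. Calculations ran in Python 3.11.15 with pandas 2.3.3, numpy 2.4.6 and scipy 1.17.1, and plots in matplotlib 3.10.9.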

Additional observations from a re-analysis of the deposited data

How the results depend on the processing

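The scaling moved more than any other choice. Quantile normalization gave 1 member called lower (Sdhc), ratios of sums of 0.945, 0.855, 0.940, 0.897 and 0.882 for complexes I to V, and medians of -0.13 for all members, -0.10 for complex III, -0.14 for complex IV and -0.20 for complex V. Upper-quartile scaling gave 1 called lower (Sdhc, -0.35) and ratios of sums of 0.994 for complex I, 1.02 for complex IV and 0.990 for complex V. Centring by length and GC content gave ratios of sums of 0.997 for complex I and 0.998 for complex V, and the highest row of each symbol alone gave 1 called lower (Ndufs1, -0.43) and Cox6b2 as a further member called higher (0.50, from -0.20). Above 1.5-fold or 2-fold, 1 member was called higher, Ndufs5. As a sum of FPKM with BC002163, a setting chosen after the data were seen, Ndufs5 turned to -0.065, a direction that belongs to the per-length sum. Of 296 values of 30 named subunits under the alternatives, 282 stayed within counting error. Many of these could not change, because the filters, the removal of non-subunits and the sum with BC002163 leave the ratios of other symbols as they were. The highest row alone likewise leaves symbols of a single row as they were, so the count of 282 is no measure of robustness. Of the rest, 11 moved under quantile normalization, 1 (Uqcrc1) with centring by length and GC content and 1 (Ndufs1) with the highest row alone. The cause of these shifts was not tested. No paired analysis was possible because each condition has 1 library, and for the same reason no replicate could be left out. Depth limits the tissue isoforms most, since the tested member with the fewest fragments, Cox4i2, had about 6.35 in HG+HBS.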
